A study of Homo sapiens with 12 samples.

Results

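The 9 genes described here encode the proteins that cut, carry and trim microRNA precursors: DROSHA, DGCR8, XPO5, DICER1, TARBP2, PRKRA, KHSRP, DDX5 and DDX17. Their transcripts were read from every probe set that the array's annotation assigns to one of these symbols, which gave 29 probe sets of the 54675 on the array. Of these, 24 carry 1 gene symbol and 5 carry the symbol of a microRNA as well as that of its host gene. Together with the members, probe sets of a single symbol name 19776 genes on the array. The 9 were chosen for their function, with earlier results of these data known, by a rule that uses no measured value.

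A microRNA begins as a hairpin in a long primary transcript. In the nucleus the Microprocessor, formed by the RNase DROSHA and its RNA-binding partner DGCR8, cuts out the hairpin. The helicases DDX5 and DDX17 and the RNA-binding protein KHSRP assist at particular primary transcripts. Exportin-5 (XPO5) carries the hairpin to the cytoplasm, where the RNase DICER1, accompanied by TARBP2 or PRKRA, trims it to the duplex that is loaded into an Argonaute protein. Mirtrons leave their host transcript by splicing and lariat debranching and so bypass the Microprocessor.

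The cells were CCRF-CEM-C7H2, a glucocorticoid-sensitive human line of T-cell acute lymphoblastic leukaemia, so all values concern 1 line and not a range of leukaemias. Dexamethasone is a synthetic glucocorticoid that binds the glucocorticoid receptor, and ethanol is its carrier. Cultures received 100 nM dexamethasone for 6 h, 0.1% ethanol for 6 h, 100 nM dexamethasone for 24 h or 0.1% ethanol for 24 h. Each of these 4 groups held 3 arrays, 1 from each of 3 independent experiments numbered 0, 1 and 3 at 6 h and 1, 2 and 3 at 24 h. RNA levels were measured on Affymetrix HG-U133 Plus 2.0 arrays, which read messenger RNA and other long transcripts. Mature microRNAs and proteins were not measured.

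All values below are log2 GCRMA values. A probe set was tested if it reached a log2 of 4 on at least 3 of the 12 arrays, which 23265 probe sets did. Between 22503 and 22941 probe sets reached that level on each array, and arrays of the same group correlated at Pearson's r of 0.997 or more. Known glucocorticoid targets were read as a check of the labels. TSC22D3 was at least 7.49 higher with dexamethasone at 6 h and at least 8.71 higher at 24 h, in log2 differences bounded by the filter level because it lay below that level in ethanol. NR3C1, the receptor's own gene, was 1.94 higher at 6 h and 1.95 higher at 24 h. MYC was lower by 0.99 at 6 h and by 2.72 at 24 h (each past the limma test). Of 11 T-lymphoblast markers, 10 lay above a log2 of 4 on all arrays and DNTT lay below it. None of 4 myeloid and 2 erythroid markers reached that level on all arrays, CD79A did among 3 B cell markers, and COL1A1 did among 4 stromal markers.

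Codes in the labels' array names formed 3 sets: all dexamethasone arrays at 6 h, all ethanol arrays at 6 h, and all 6 arrays at 24 h. At 6 h the array set and the treatment therefore cannot be told apart, and the 24 h comparison lies within 1 set. Poly-A RNA spikes, added as controls, read higher on dexamethasone arrays than on ethanol arrays by 0.47 at 6 h and 0.34 at 24 h, and the hybridization spikes by 0.34 and 0.38. The 18S ribosomal RNA probe sets differed by −2.27 at 6 h and 0.28 at 24 h. The values are on the deposited GCRMA scale, whose settings are not given, and are not absolute amounts of RNA. Setting them on the poly-A spikes moves every difference down by 0.47 at 6 h and 0.34 at 24 h. The part of these control differences in the results below was not tested.

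Of the 29 probe sets, 23 passed the filter and 6 did not. The 6 lay between 2.33 and 3.94 on all 12 arrays, which is at the background, and they are given no direction: 3 for DICER1 (216280_s_at, 216281_at and 216260_at) and 1 each for KHSRP (227555_s_at), DGCR8 (219811_at) and TARBP2 (239389_at). Every gene kept at least 1 tested probe set. Where a gene had several, the one with the highest mean over the 12 arrays stands for it in counts of genes.

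Several of these genes hold microRNA genes within their span, and whether any probe set reads the stretch that holds one was not looked at here. RefSeq places 6 microRNA genes within 4 of the members, all on the host's strand, with 10 mature products that share no seed. They are shown because these genes process microRNAs and hold some themselves. The array's annotation ties all 4 DGCR8 probe sets to MIR1306 and 1 DDX5 probe set to MIR3064 and MIR5047, and no member probe set to the other 3 microRNA genes. Bases 2 to 8, the seed that pairs with targets, are in capitals.
hsa-miR-3618 (DGCR8): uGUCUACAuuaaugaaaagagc
hsa-miR-1306-5p (DGCR8): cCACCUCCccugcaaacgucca
hsa-miR-1306-3p (DGCR8): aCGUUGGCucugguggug
hsa-miR-3173-5p (DICER1): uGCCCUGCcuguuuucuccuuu
hsa-miR-3173-3p (DICER1): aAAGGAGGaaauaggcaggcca
hsa-miR-3940-5p (KHSRP): gUGGGUUGgggcgggcucug
hsa-miR-3940-3p (KHSRP): cAGCCCGGaucccagcccacuu
hsa-miR-3064-5p (DDX5): uCUGGCUGuuguggugugcaa
hsa-miR-3064-3p (DDX5): uUGCCACAcugcaacaccuuaca
hsa-miR-5047 (DDX5): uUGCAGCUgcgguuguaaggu

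The promoters of 3 members are shown as examples: XPO5, the member with the largest fall, KHSRP, which fell, and DDX17, which rose. PRKRA, which is not shown, fell further than KHSRP. They are RefSeq sequences on GRCh38.p14, up to 250 bases before the annotated start, read on the gene's strand, with motif matches in capitals. XPO5 lies on the minus strand of chromosome 6, head to head with POLH, whose annotated start at 43576185 cuts its window to 146 bases (chr6:43576039-43576184). The KHSRP window is chr19:6424812-6425061 and the DDX17 window is chr22:38506312-38506561, both on the minus strand.
XPO5: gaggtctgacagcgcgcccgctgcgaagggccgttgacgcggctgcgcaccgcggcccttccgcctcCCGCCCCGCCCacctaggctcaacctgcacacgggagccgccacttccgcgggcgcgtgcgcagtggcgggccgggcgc
KHSRP: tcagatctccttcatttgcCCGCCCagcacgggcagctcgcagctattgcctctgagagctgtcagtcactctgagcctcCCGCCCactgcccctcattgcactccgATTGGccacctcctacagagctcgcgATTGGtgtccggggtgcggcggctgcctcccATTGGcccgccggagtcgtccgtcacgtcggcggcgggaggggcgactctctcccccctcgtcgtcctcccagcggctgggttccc
DDX17: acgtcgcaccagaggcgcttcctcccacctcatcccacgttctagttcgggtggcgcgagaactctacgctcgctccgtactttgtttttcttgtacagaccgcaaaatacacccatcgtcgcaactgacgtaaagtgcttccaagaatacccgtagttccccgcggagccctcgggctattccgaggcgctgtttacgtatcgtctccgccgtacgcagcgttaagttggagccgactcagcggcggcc

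Both strands were searched, over 250 bases before to 50 after each start, in 19 windows of the 9 genes and in all 35116 windows of the table. The GC box GGGCGG was in 15 of the 19 windows, covering all members except DDX17, and in 45.0% of all windows. CCAAT was in 10 of the 19, covering 7 genes, and in 34.6% of all. The E-box CACGTG, the sequence that MYC and other factors bind, was in 1 window, of DDX5, and in 7.26% of all. The full palindrome of the glucocorticoid response element was in none of the 19 and in 1 window of the whole table. XPO5 holds a pair of overlapping GC boxes, KHSRP 2 GC boxes and 3 CCAAT matches, and DDX17 none of the 4 motifs. Some windows of 1 gene overlap each other. A match is a description of the letters only.

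Across the treatment, 15 of the 23 tested probe sets changed at 24 h, 5 higher and 10 lower with dexamethasone (limma, Benjamini-Hochberg adjusted p under 0.05). That is 65.2% of them, beside 47.3% of all 23265 tested probe sets, of which 22.8% were higher and 24.5% lower. Taken as 1 probe set a gene, 6 of 9 genes changed, beside 52.0% of 9948 genes (23.9% higher and 28.1% lower). XPO5, TARBP2, PRKRA and KHSRP were lower, and DDX5 (200033_at) and DDX17 higher. On the poly-A spike scale DDX5 changed sign, DDX17 stayed positive, and neither passed. The other DDX5 probe set, 225886_at, lay lower without overlap, by −0.53, and did not pass (limma adjusted p = 0.0758). Without ethanol 24 h replicate 2 the 15 calls became 9, and with any other array left out they were 11 to 16. At 6 h, 3 of 23 probe sets changed, all lower, beside 6.2% of all tested probe sets, 2.66% higher and 3.54% lower. These were 2 of the 3 XPO5 probe sets and 1 of 5 for DDX17, and with any 1 array left out at most 1 of them was called. The median difference over the 23 was −0.14 at 6 h and −0.31 at 24 h, against −0.01 for all tested probe sets at both times. Taken as 1 probe set a gene, the median over the 9 genes was −0.065 at 6 h and −0.069 at 24 h. For all genes it was −0.0023 and −0.022. Probe sets that the annotation assigns to 1 gene are not separate observations, and the stretch each reads was not looked at here.

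The 2 treatments did not overlap in 18 of 23 member probe sets at 24 h, with dexamethasone above in 6 and below in 12, beside 61.1% of all tested probe sets (29.2% above and 31.9% below). At 6 h they did not overlap in 8 of 23, with dexamethasone below in each, beside 23.5% of all (9.78% above and 13.7% below). Set on the poly-A spikes, the calls at 24 h were 13, all lower, beside 43.3% of all tested probe sets lower. At 6 h they were 19, all lower, beside 65.0%.

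**Figure D1:**
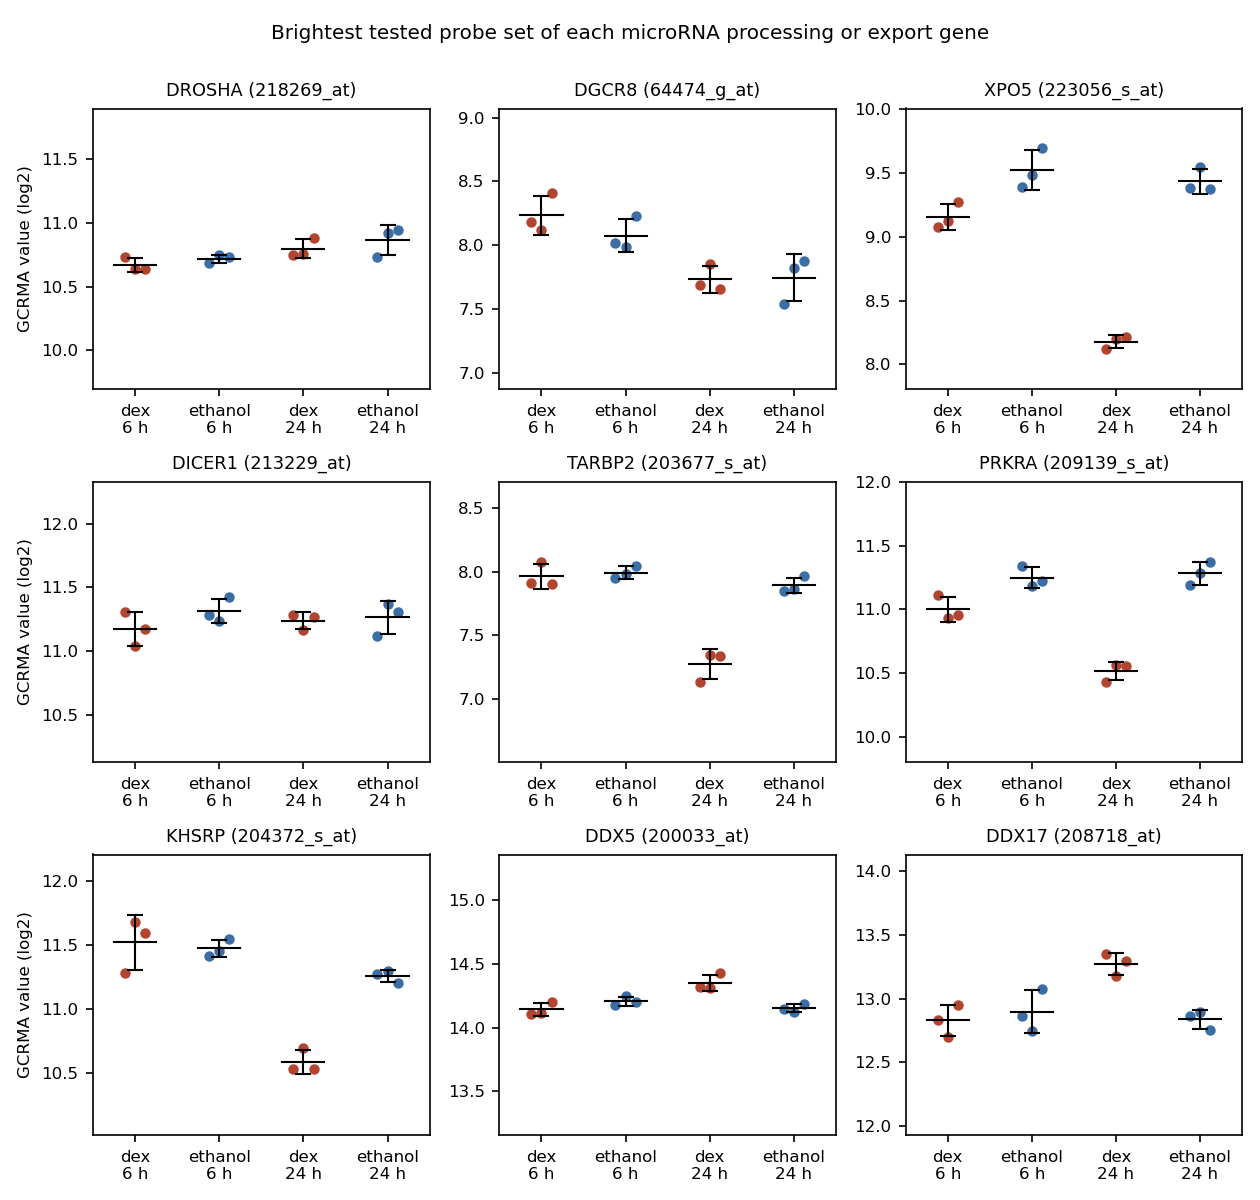
Each panel shows 1 gene by its probe set of highest mean: log2 GCRMA value of each of the 12 arrays (points), with the group mean and SD (bars), for dexamethasone (red) and ethanol (blue) at 6 h and 24 h, n = 3 a group. On this deposited scale XPO5, TARBP2, PRKRA and KHSRP lie lower in dexamethasone at 24 h with no overlap, DDX5 and DDX17 lie higher, and DROSHA, DGCR8 and DICER1 overlap with ethanol.

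DROSHA, the nuclear RNase III that cuts the hairpin out, lies on chromosome 5 (chr5:31400494-31532093, GRCh38.p14) and was read by 1 probe set, 218269_at. It had 10.73, 10.63 and 10.64 in dexamethasone at 6 h, against 10.68, 10.74 and 10.73 in ethanol. At 24 h it had 10.75, 10.76 and 10.88 in dexamethasone, against 10.73, 10.92 and 10.94 in ethanol. The groups overlapped at both times. The difference was −0.05 ± 0.08 (SE) at 6 h, with a 95% interval from −0.22 to 0.12, and −0.07 ± 0.08 at 24 h, from −0.24 to 0.10 (limma adjusted p = 0.781 and 0.496). On the poly-A spike scale the 24 h difference was −0.41 (adjusted p = 0.0194).

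DGCR8, the double-stranded RNA-binding partner that holds the hairpin for DROSHA, lies at chr22:20080241-20111872. Its 4 probe sets all carry the joint annotation MIR1306/DGCR8. One of the 3 tested, 218650_at, is tied to a DGCR8 messenger RNA by accession, and 64474_g_at and 91617_at only to the joint annotation. Probe set 64474_g_at had 8.18, 8.12 and 8.41 in dexamethasone at 6 h, against 8.01, 7.99 and 8.23 in ethanol, and 7.69, 7.85 and 7.65 in dexamethasone at 24 h, against 7.54, 7.82 and 7.88 in ethanol. In each treatment the 24 h values lay below the 6 h values without overlap. The treatment differences were 0.16 ± 0.12 at 6 h and −0.01 ± 0.12 at 24 h (limma adjusted p = 0.5002 and 0.930), with 95% intervals from −0.10 to 0.42 and from −0.27 to 0.24. For 218650_at they were 0.23 ± 0.19 and 0.10 ± 0.19, and for 91617_at 0.04 ± 0.15 at both times. None of these 6 differences passed the test. On the poly-A spike scale all 6 turned or stayed negative, from −0.24 to −0.43 at 6 h and from −0.23 to −0.35 at 24 h, and none passed.

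DDX17, a DEAD-box helicase that accompanies the Microprocessor, lies at chr22:38483438-38506311 and has 5 probe sets, all tested. Probe set 208718_at had 13.35, 13.18 and 13.29 in dexamethasone at 24 h, against 12.86, 12.90 and 12.75 in ethanol. All 3 dexamethasone arrays lay above all 3 ethanol arrays, and the difference was 0.44 ± 0.10 (1.35-fold, limma adjusted p = 0.00431). At 6 h the same probe set had 12.83, 12.70 and 12.95 in dexamethasone, against 12.87, 12.75 and 13.08 in ethanol, which overlap. The 6 h difference was −0.07 ± 0.10 (adjusted p = 0.771).

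The other 4 probe sets gave DDX17 the same order at 24 h. Probe set 230180_at was higher by 0.58 ± 0.18, 213998_s_at by 0.45 ± 0.14 and 208719_s_at by 0.44 ± 0.15 (limma adjusted p = 0.0182, 0.0193 and 0.0348). The last, 208151_x_at, gave 0.37 ± 0.18 without passing (adjusted p = 0.109), and passed with the experiment number as a block (adjusted p = 0.0198). All 3 experiments were higher with dexamethasone for each of the 5. Probe set 230180_at varied most among experiments, with 10.37, 9.54 and 9.86 in dexamethasone, against 9.53, 9.18 and 9.31 in ethanol. Of the 4 called, 3 lost the call with single arrays left out. The adjusted p reached 0.107 for 208719_s_at, which lost it without any one of the 6 arrays at 24 h, and 0.0694 for 230180_at, both without ethanol 24 h replicate 2. For 213998_s_at it reached 0.0686 without dexamethasone 24 h replicate 1, and the call was also lost without ethanol 24 h replicate 2 or 3. On the poly-A spike scale the 5 differences were between 0.03 and 0.25, and none passed (adjusted p between 0.375 and 0.902).

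At 6 h all 5 DDX17 probe sets had negative differences, between −0.07 and −0.58, and 1 passed. Probe set 208719_s_at had 6.58, 6.45 and 7.09 in dexamethasone at 6 h, against 7.21, 7.16 and 7.50 in ethanol. The dexamethasone arrays lay below without overlap, and the difference was −0.58 ± 0.15 (limma adjusted p = 0.0481). That call was lost in 11 of the 12 fits that left out 1 array, all but the one without dexamethasone 6 h replicate 3 (adjusted p up to 0.153, without ethanol 6 h replicate 3). With the experiment number as a block, 208151_x_at also passed at 6 h, at −0.41 (adjusted p = 0.0457).

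DDX5, the paralogue of DDX17, lies at chr17:64498254-64506866 and has 2 probe sets that moved apart. Probe set 200033_at, which also carries the names of the microRNAs MIR3064 and MIR5047 and is tied to the DDX5 messenger RNA by accession, had 14.32, 14.31 and 14.43 in dexamethasone at 24 h, against 14.15, 14.13 and 14.19 in ethanol. The groups did not overlap, and the difference was 0.20 ± 0.06 (1.15-fold, limma adjusted p = 0.0247). The other, 225886_at, had 6.70, 6.48 and 6.68 in dexamethasone, against 7.12, 7.16 and 7.17 in ethanol. There the dexamethasone arrays were the lower ones, again without overlap, by −0.53 ± 0.22 (adjusted p = 0.0758 without and 0.0020 with the experiment number as a block).

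Within each array, 200033_at exceeded 225886_at by 7.73 ± 0.11 in dexamethasone and by 7.004 ± 0.03 in ethanol at 24 h (SD, n = 3 each). That gap was wider by 0.73, with no overlap, and its exact two-sided permutation p was 0.1, the lowest value that 6 arrays in groups of 3 allow. This and the other exact tests within arrays shuffled the arrays without keeping the experiments as pairs, and a shuffle within pairs, whose lowest p is higher still, was not run. None of these tests could pass 0.05. The pair was picked after its values were seen. The stretch of the DDX5 transcript that each probe set reads was not looked at here, and no single direction holds for both. At 6 h 200033_at differed by −0.07 ± 0.06 and 225886_at by −0.41 ± 0.22. Neither passed (limma adjusted p = 0.635 and 0.349), and 225886_at passed at 6 h with the block (adjusted p = 0.0288). The 24 h rise of 200033_at was lost in 3 of 12 fits with an array left out (adjusted p up to 0.0922, without dexamethasone 24 h replicate 3, and also without ethanol 24 h replicate 1 or 2), and on the poly-A spike scale it turned to −0.14 (adjusted p = 0.443).

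Set against each other within arrays, DDX17 (208718_at) minus DDX5 (200033_at) was −1.08 ± 0.09 in dexamethasone and −1.32 ± 0.11 in ethanol at 24 h (SD, n = 3 each). The difference was 0.24, with an exact permutation p of 0.1, so no call can be made from it. At 6 h it was −1.32 ± 0.09 in dexamethasone and −1.31 ± 0.19 in ethanol (exact p = 1). DROSHA minus DGCR8 differed by −0.05 between the treatments at 24 h and by −0.21 at 6 h (exact p = 0.6 and 0.3).

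**Figure D2:**
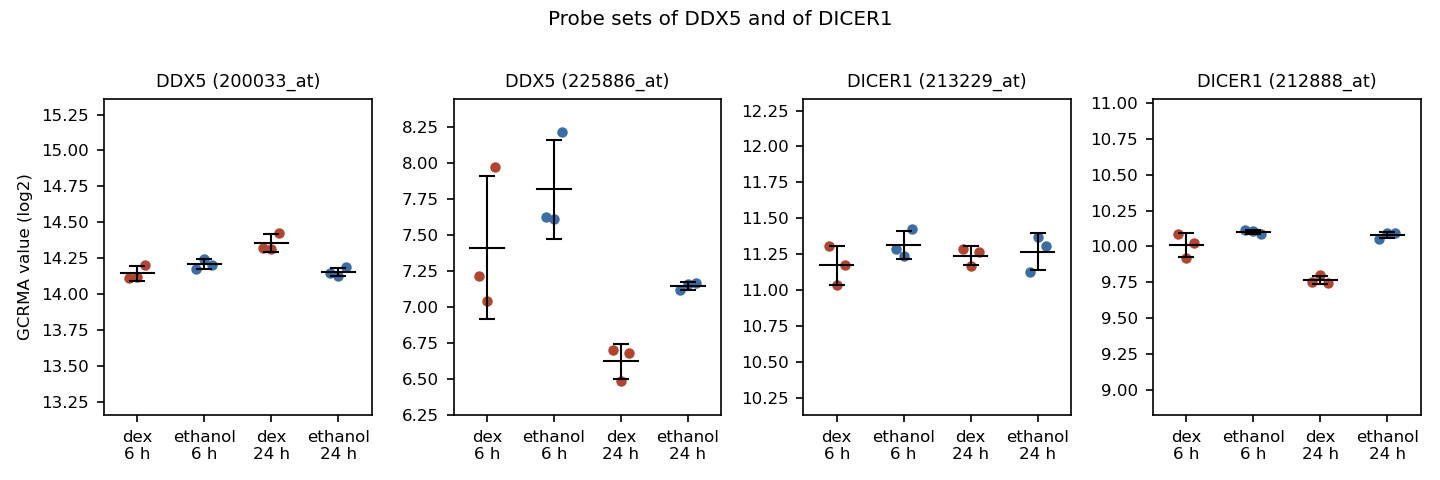
Log2 GCRMA values on each array (points), with group mean and SD (bars), for both tested DDX5 probe sets and for 2 of the 3 DICER1 probe sets, in dexamethasone (red) and ethanol (blue) at 6 h and 24 h, n = 3 a group. At 24 h DDX5 200033_at lies higher and 225886_at lower in dexamethasone, and DICER1 213229_at overlaps with ethanol while 212888_at lies below it.

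XPO5, the export receptor for precursor hairpins, had the largest change of the 9 genes. It lies at chr6:43522334-43576038, and all 3 of its probe sets fell at 24 h. Probe set 223056_s_at had 8.12, 8.20 and 8.21 in dexamethasone at 24 h, against 9.38, 9.55 and 9.37 in ethanol. More than a whole log2 unit separated the highest dexamethasone array from the lowest ethanol array. The difference was −1.26 ± 0.09, or 2.39-fold lower (95% interval from −1.47 to −1.05, limma adjusted p = 1.93e-06).

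Its other 2 probe sets gave like values. Probe set 223057_s_at had 7.57, 7.96 and 7.83 in dexamethasone at 24 h, against 9.01, 9.03 and 9.15 in ethanol, a difference of −1.27 ± 0.10 (limma adjusted p = 3.06e-06). Probe set 223055_s_at had 6.75, 7.12 and 6.79 in dexamethasone, against 8.33, 8.70 and 8.53 in ethanol, a difference of −1.63 ± 0.12, or 3.10-fold lower (adjusted p = 1.36e-06). In each of the 3 experiments, each probe set was lower with dexamethasone, with differences between −1.74 and −1.06. These calls held in every fit that left out 1 array and under every alternative run. Of all tested probe sets, 3.04% fell at least as far at 24 h as 223056_s_at did.

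The fall of XPO5 was smaller at 6 h. Probe set 223056_s_at had 9.08, 9.13 and 9.27 in dexamethasone, against 9.39, 9.49 and 9.70 in ethanol, and 223057_s_at had 8.83, 8.74 and 8.90 in dexamethasone, against 9.17, 9.18 and 9.34 in ethanol. Neither overlapped, and the differences were −0.36 ± 0.09 and −0.41 ± 0.10 (limma adjusted p = 0.0480 and 0.0431). The 223055_s_at difference was −0.16 ± 0.12 and did not pass (adjusted p = 0.494). The called pair lost its calls in 11 and 10 of the 12 fits that left out 1 array, with adjusted p up to 0.148 and 0.138, both without ethanol 6 h replicate 3. The first kept its call without ethanol 6 h replicate 0, and the second without dexamethasone 24 h replicate 1 or 2. With the experiment number as a block, both passed (adjusted p = 0.0159 and 0.0254).

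**Figure D3:**
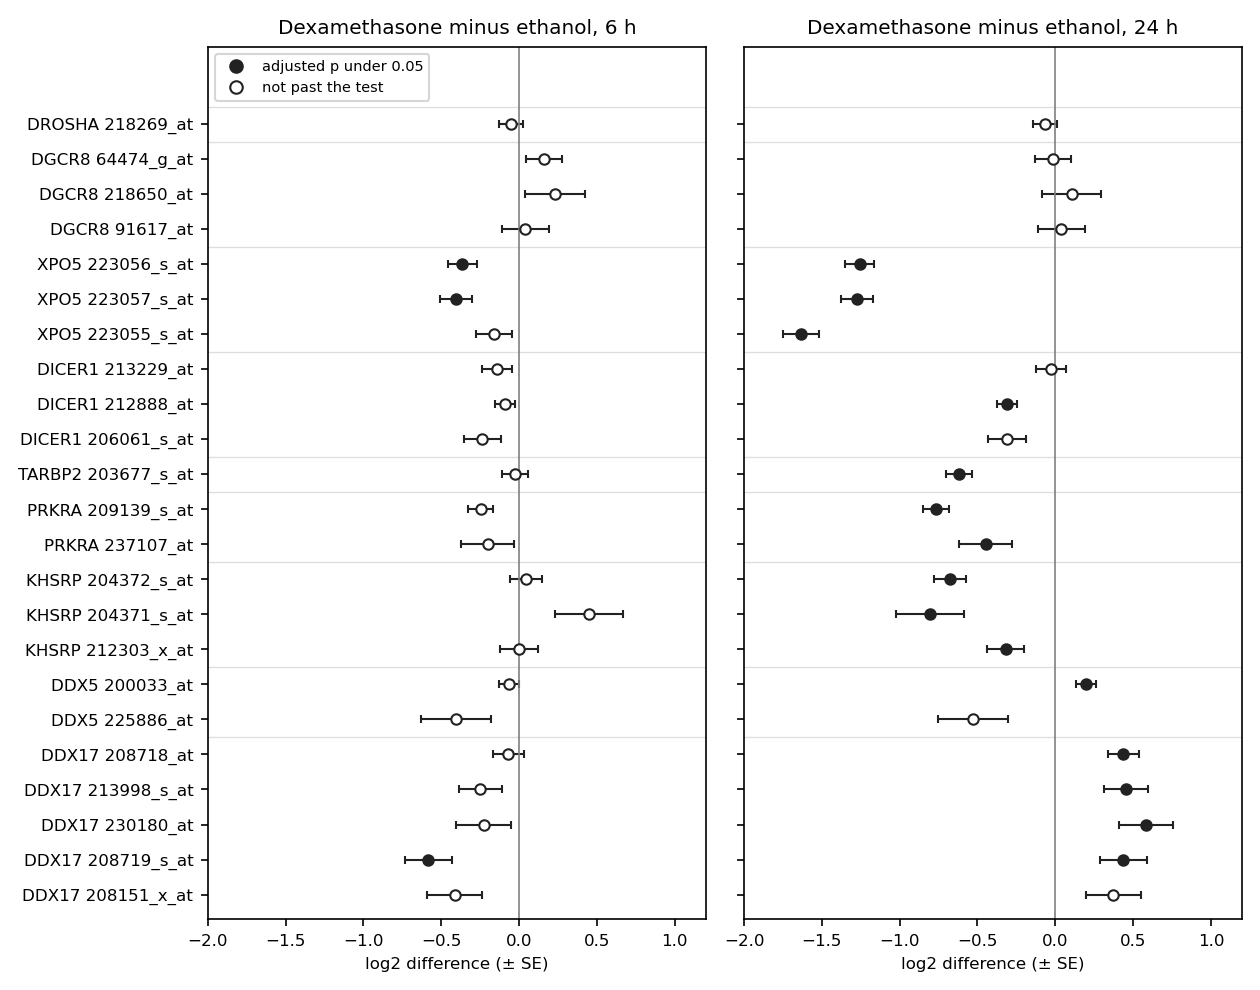
Dexamethasone minus ethanol, as a log2 difference with its SE from limma, for each of the 23 tested probe sets at 6 h (left) and 24 h (right); filled points passed at an adjusted p under 0.05 and open points did not. At 24 h the 3 XPO5 probe sets lie between −1.63 and −1.26, those of TARBP2, PRKRA and KHSRP between −0.81 and −0.32, and the DDX17 probe sets on the other side of 0, between 0.37 and 0.58.

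DICER1, the cytoplasmic RNase III that trims the exported hairpin, lies at chr14:95086228-95158010, and its 3 tested probe sets did not give 1 answer. Probe set 213229_at had 11.29, 11.17 and 11.27 in dexamethasone at 24 h, against 11.12, 11.37 and 11.31 in ethanol. These overlap, and the difference was −0.03 ± 0.10 (95% interval from −0.24 to 0.18, limma adjusted p = 0.836). Probe set 212888_at had 9.75, 9.80 and 9.75 in dexamethasone, against 10.05, 10.10 and 10.09 in ethanol. Here every dexamethasone array lay lower, by −0.31 ± 0.06 (1.24-fold lower, adjusted p = 0.00218), and that call held in each fit with 1 array left out.

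The remaining DICER1 probe set, 206061_s_at, had 8.47, 8.42 and 8.57 in dexamethasone at 24 h, against 8.64, 8.90 and 8.85 in ethanol. It differed by −0.31 ± 0.12 and fell just outside the threshold (limma adjusted p = 0.0544, and 0.0339 with the experiment number as a block). Within arrays 213229_at minus 212888_at was 1.47 ± 0.09 in dexamethasone and 1.19 ± 0.11 in ethanol at 24 h (SD, n = 3 each), a difference of 0.29 with an exact permutation p of 0.1. This pair too was chosen after its values were seen. At 6 h the 3 DICER1 differences were −0.14 ± 0.10, −0.09 ± 0.06 and −0.24 ± 0.12, and none passed.

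TARBP2, the double-stranded RNA-binding protein that accompanies DICER1, lies at chr12:53500923-53506431. Its 1 tested probe set, 203677_s_at, had 7.14, 7.35 and 7.34 in dexamethasone at 24 h, against 7.85, 7.87 and 7.96 in ethanol. The groups stood apart, and the difference was −0.62 ± 0.08, or 1.54-fold lower (limma adjusted p = 0.000115). At 6 h it had 7.91, 8.08 and 7.90 in dexamethasone, against 7.95, 7.98 and 8.05 in ethanol. Those values overlap and differed by −0.03 ± 0.08, with a 95% interval from −0.21 to 0.15 (adjusted p = 0.905).

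PRKRA, also called PACT, is the other double-stranded RNA-binding partner of DICER1 and an activator of the kinase PKR. It lies at chr2:178431414-178451175. Probe set 209139_s_at had 10.43, 10.56 and 10.56 in dexamethasone at 24 h, against 11.19, 11.29 and 11.37 in ethanol. The difference was −0.77 ± 0.08, or 1.70-fold lower (limma adjusted p = 2.53e-05), of which the 3 experiments gave between −0.82 and −0.73. At 6 h it had 11.11, 10.93 and 10.96 in dexamethasone, against 11.34, 11.18 and 11.22 in ethanol. These did not overlap, and the difference of −0.25 ± 0.08 passed only with the experiment number as a block (adjusted p = 0.114 without and 0.0328 with it). The second probe set, 237107_at, had 6.46, 6.36 and 6.62 in dexamethasone at 24 h, against 6.84, 6.77 and 7.17 in ethanol, a difference of −0.45 ± 0.17 at the edge of the threshold (adjusted p = 0.0495). It lost the call in 10 of 12 fits that left out 1 array (adjusted p up to 0.174), all but those without dexamethasone 6 h replicate 0 or 1.

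Both partners of DICER1 fell at 24 h. TARBP2 minus PRKRA within arrays was −3.24 ± 0.04 in dexamethasone and −3.39 ± 0.04 in ethanol (SD, n = 3 each), a difference of 0.15 with no overlap and an exact permutation p of 0.1. For PRKRA this used 209139_s_at, and against 237107_at, which differed by −0.45 between the treatments, TARBP2 had the larger fall. DICER1 (213229_at) minus TARBP2 was 3.97 ± 0.17 in dexamethasone and 3.38 ± 0.12 in ethanol, a difference of 0.59 with the same exact p. At 6 h those 2 pairs differed between treatments by 0.22 and −0.11 (exact p = 0.2 and 0.7).

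KHSRP, an RNA-binding protein known both for promoting the processing of particular microRNA precursors and for the decay of AU-rich messenger RNAs, lies at chr19:6413102-6424811. Probe set 204372_s_at had 10.53, 10.69 and 10.52 in dexamethasone at 24 h, against 11.27, 11.30 and 11.21 in ethanol. The dexamethasone arrays lay lower, with a difference of −0.67 ± 0.10, or 1.60-fold lower (limma adjusted p = 0.000313). At 6 h it had 11.28, 11.68 and 11.60 in dexamethasone, against 11.42, 11.45 and 11.55 in ethanol, which overlap, and the difference was 0.05 ± 0.10 (adjusted p = 0.862).

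The dimmer KHSRP probe sets had the same direction at 24 h. Probe set 204371_s_at had 5.57, 6.12 and 5.43 in dexamethasone, against 6.46, 6.57 and 6.51 in ethanol, a difference of −0.81 ± 0.22 (limma adjusted p = 0.0107). Probe set 212303_x_at gave −0.32 ± 0.12 at the edge of the threshold (adjusted p = 0.0484) and lost its call in 9 of the 12 fits that left out 1 array, all but those without dexamethasone 6 h replicate 0 or 1 or dexamethasone 24 h replicate 2. At 6 h 204371_s_at had 6.53, 7.40 and 7.18 in dexamethasone, against 6.53, 6.51 and 6.74 in ethanol. Its difference of 0.45 ± 0.22 did not pass (adjusted p = 0.284), and experiment 0 showed almost none of it.

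**Figure D4:**
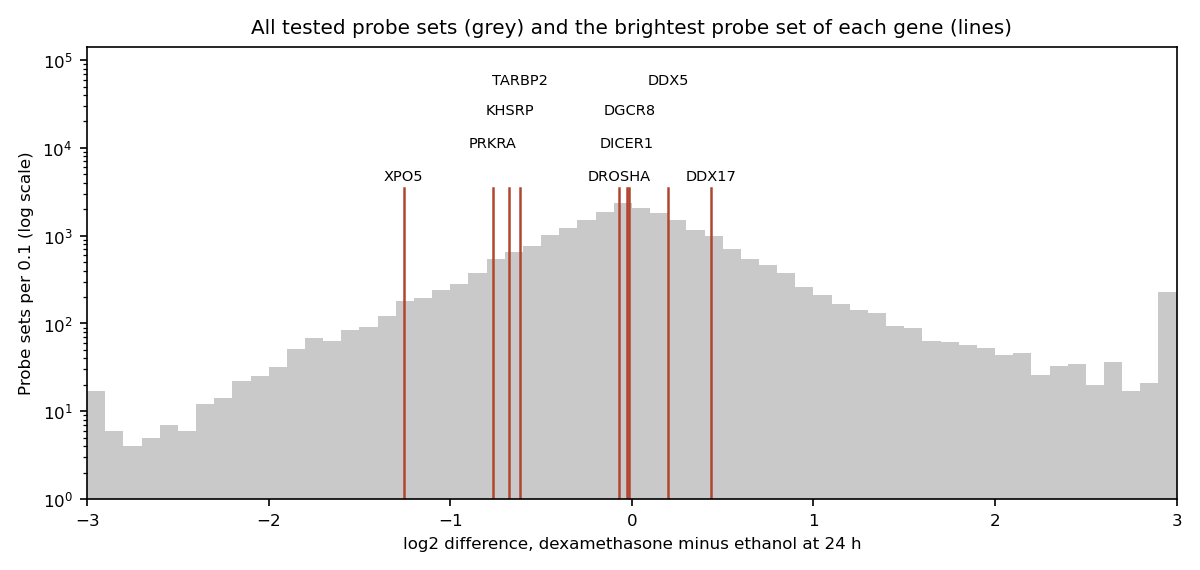
Number of the 23265 tested probe sets (log scale, bins of 0.1) by their log2 difference, dexamethasone minus ethanol at 24 h, with lines for the highest-mean probe set of each of the 9 genes; the end bars also hold the 15 probe sets below −3 and the 216 above 3. XPO5 lies at −1.26, PRKRA, KHSRP and TARBP2 between −0.77 and −0.62, DDX17 at 0.44 and DDX5 at 0.20, with DROSHA, DGCR8 and DICER1 between −0.07 and −0.01.

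Compared with all tested probe sets, 8.99% fell at least as far at 24 h as PRKRA (209139_s_at), 11.2% as far as KHSRP (204372_s_at) and 12.7% as far as TARBP2. For DDX17 (208718_at) 19.4% rose at least as far, and for DDX5 (200033_at) 32.5%. Dexamethasone moved so many transcripts at 24 h that these ranks, XPO5's included, describe where the genes lie and do not set them apart.

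The response at 24 h differed from that at 6 h in 12 of 23 tested probe sets (limma interaction, 24 h difference minus 6 h difference), beside 23.1% of all tested probe sets. For XPO5 the fall was deeper at 24 h by −1.47 ± 0.17 (223055_s_at), −0.89 ± 0.13 (223056_s_at) and −0.87 ± 0.15 (223057_s_at). KHSRP moved down between the times by −0.72 ± 0.15 (204372_s_at) and −1.25 ± 0.31 (204371_s_at), TARBP2 by −0.59 ± 0.12 and PRKRA (209139_s_at) by −0.52 ± 0.12. All 5 DDX17 probe sets moved up, by between 0.51 ± 0.14 and 1.02 ± 0.21, and of these 208719_s_at alone kept its call with each array left out. The call of 208151_x_at was lost in 9 of 12 such fits, all but those without dexamethasone 6 h replicate 3, ethanol 6 h replicate 0 or dexamethasone 24 h replicate 2 (adjusted p up to 0.0950). That of 230180_at was also lost in 9, all but those without dexamethasone 24 h replicate 1 or 2 or ethanol 24 h replicate 1 (up to 0.0887). For 208718_at it was lost in 5, without dexamethasone 6 h replicate 1, ethanol 6 h replicate 3, dexamethasone 24 h replicate 1 or 3, or ethanol 24 h replicate 3 (up to 0.0625). For 213998_s_at it was lost in 4, without dexamethasone 6 h replicate 3, ethanol 6 h replicate 3, or ethanol 24 h replicate 2 or 3 (up to 0.0627). With all arrays, the adjusted p of the 12 lay between 0.000182 and 0.0446. At 24 h both treatments belong to 1 array set, but at 6 h each treatment is its own set. Treatment and array set therefore cannot be told apart in the 6 h part of this comparison, and the difference of the responses holds that part. With 1 array left out 8 to 12 calls remained in number, the fewest without ethanol 6 h replicate 3, and 5 passed on the poly-A spike scale (all 3 of XPO5, KHSRP 204371_s_at and DDX17 208719_s_at), beside 14.2% of all tested probe sets.

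Between ethanol at 24 h and ethanol at 6 h, 0 of 23 member probe sets were called by limma, beside 0.486% of all tested probe sets. Of the 23, 4 had an unadjusted limma p under 0.05, beside 3558 of all 23265 tested probe sets. The 2 ethanol groups belong to different array sets, so time and array set cannot be told apart there. A missing call does not show that time had no effect. In order of level over the 4 groups, XPO5 (223056_s_at) was lowest in dexamethasone at 24 h and next in dexamethasone at 6 h, and the ethanol groups lay above both and overlapped each other. For TARBP2 and KHSRP (204372_s_at), dexamethasone at 24 h was lowest by itself, and the dexamethasone and ethanol arrays at 6 h overlapped. For DDX17 (208718_at) dexamethasone at 24 h was highest, and the other 3 groups overlapped one another.

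Over the 12 arrays the highest-mean probe sets that fell at 24 h ran together. Pearson's r over their 6 pairs was 0.942 for XPO5 with PRKRA, 0.929 for XPO5 with TARBP2, 0.882 for XPO5 with KHSRP, 0.954 for TARBP2 with KHSRP, 0.876 for TARBP2 with PRKRA and 0.753 for PRKRA with KHSRP. DDX5 with DDX17 gave 0.807, and TARBP2 with DDX17 −0.879. DROSHA with DGCR8 gave −0.526. The 12 points share 4 groups, so these values mostly restate the group differences and carry no test.

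By the same measure over 12 arrays, the genes whose pattern was most like XPO5's were ETF1, LARP1 and LETM1 (r = 0.996, 0.994 and 0.994), and those most like KHSRP's were IL32, SCCPDH and LDHA (0.989, 0.986 and 0.985). TARBP2 was followed most closely by CARM1, NARS2 and TMEM147 (0.989, 0.988 and 0.986), and PRKRA by TRNT1, ASCC3 and APOO (0.985, 0.982 and 0.982). DDX17 ran closest to DDHD1, GNRH1 and DYRK1A (0.948, 0.944 and 0.941), and DDX5 to UMODL1, KLHL20 and XIAP (0.963, 0.945 and 0.944). The likeness was lower for DROSHA, with RAB38, GTF2E1 and AFF1 (0.924, 0.862 and 0.858). It was lowest for DICER1 (213229_at), with KMT2A, C19orf12 and ZNF383 (0.847, 0.836 and 0.823). DGCR8 (64474_g_at), whose values were lower at 24 h in both treatments, was matched by MBOAT1, SPCS1 and TCAIM (0.959, 0.951 and 0.943). The ethanol values of its other tested probe sets overlapped between the times, and the array set also differs between the times.

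Elsewhere in the pathway, a list of 38 other genes that act on primary transcripts, precursors or mature microRNAs had 33 tested members. Among those not tested, ZC3H12A had no probe set of 1 symbol, and LIN28A and LIN28B, which block the processing of let-7, lay no higher than 2.53 and 2.28 on any array. At 24 h 6 of the 33 were higher, 7 lower and 20 did not pass, 39.4% called beside 52.0% of all genes, with a median difference of −0.0031. At 6 h 1 was higher and 0 lower by limma, beside 6.49% of all genes. An unadjusted limma p under 0.05 was found for 6 of the 33, beside 2095 of all 9948 genes.

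Among those higher at 24 h were an Argonaute and the scaffold that links Argonautes to deadenylases. AGO4 had a mean of 8.90 in dexamethasone and 7.64 in ethanol (difference 1.26 ± 0.15, limma adjusted p = 4.11e-05). TNRC6B had a mean of 10.07 in dexamethasone and 8.98 in ethanol (1.09 ± 0.14, adjusted p = 9.92e-05) and was the 1 gene higher at 6 h too, by 0.63 ± 0.14 (adjusted p = 0.0271). TUT7, a terminal uridyltransferase of precursors, was higher by 1.15 ± 0.12 and ADARB1, an adenosine deaminase acting on double-stranded RNA, by 0.75 ± 0.13. METTL3, which methylates primary transcripts, and TENT2, a poly(A) polymerase, were higher by 0.29 ± 0.07 and 0.23 ± 0.08. On the poly-A spike scale AGO4, TUT7, TNRC6B and ADARB1 still passed at 24 h, METTL3 and TENT2 turned to −0.05 and −0.10, and TNRC6B at 6 h was 0.16 (adjusted p = 0.484). TENT2 lost its call without any one of 5 of the 6 arrays at 24 h, as did TNRC6B at 6 h for 5 of the 6 arrays at 6 h.

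The 7 genes lower at 24 h made up 21.2% of the 33 tested, beside 28.1% of all genes. RAN, the GTPase that exportin-5 needs to hold its cargo, had a mean of 14.30 in dexamethasone and 14.69 in ethanol (difference −0.39 ± 0.06, limma adjusted p = 0.000275). NUP153, a nuclear pore protein, was lower by −0.63 ± 0.10 and NCBP2, of the cap-binding complex, by −0.66 ± 0.13. AGO2, the Argonaute that can cleave its targets, had 10.33 in dexamethasone and 10.78 in ethanol (−0.45 ± 0.13, adjusted p = 0.0126). By 1 probe set each, AGO2 and AGO4 moved in opposite directions. Every gene of this list was read by its highest-mean tested probe set only, and any others were not looked at. DBR1, the lariat-debranching enzyme that mirtrons need, differed by −0.44 ± 0.08 and TARDBP, an RNA-binding protein associated with DROSHA and DICER1, by −0.42 ± 0.07. ILF2, a nuclear protein that acts on RNA, was lower by −0.23 ± 0.07 (adjusted p = 0.0167) and lost its call without dexamethasone 24 h replicate 1 or 3.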

How the data were processed

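The authors deposited 1 table of log2 values per probe set for all 12 arrays, and per the submitters' processing notes they came from GCRMA under R 2.6. The GCRMA settings and the set of arrays it was run on are not given in the sources used, so the background correction could not be varied. The unit is log2 signal, so precision rests on 3 arrays a group. Probe sets were named from the platform's annotation (41097 with 1 symbol, 1801 with several, 11777 with none), and gene positions and sequences are from RefSeq, GRCh38.p14. The position of each probe set is not given here.

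Of 54675 probe sets, 62 controls were set apart and those at a log2 of 4 or more on at least 3 arrays were tested. limma 3.58.1 in R 4.3.3 was fitted to 4 group means over all 12 arrays (8 residual degrees of freedom), without a block, with Benjamini-Hochberg adjustment over the 23265 probe sets and a threshold of 0.05. The fit was tested on simulated data and missed part of the changes put in. A difference that did not pass therefore does not show that there was no change. The p-values measure the spread among experiments on 1 cell line. Same-numbered arrays deviated together within each time (r between 0.238 and 0.627, other pairs at most 0.0500), so the experiment numbers pair the samples. Their block was fitted as an alternative and is given where it changes a call.

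All member probe sets are named. The members and lists were chosen with earlier results of these data known. From the list of 38 other pathway genes, up to 6 called genes a direction and time are named by size, and ILF2 was added after its values were seen. Some genes of that list are not reported here. Pairs within arrays were tested by exact two-sided permutation of unpaired arrays. The alternatives were the experiment block (nested within each time, or common to both times), no filter, a filter at 6, median centring, cyclic loess, the scale of 24 poly-A spike probe sets, a trend in the prior variance, the arrays of 1 time only, and each array left out.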

Additional observations from a re-analysis of the deposited data

Results flagged for a closer look

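The dexamethasone response at 24 h differed from that at 6 h in 12 of 23 tested member probe sets. Among all tested probe sets the share was 23.1%. The test was of the difference itself (limma interaction, adjusted p under 0.05). On the poly-A spike scale 5 member probe sets passed, beside 14.2% of all tested probe sets. Each value is the log2 difference at 24 h minus that at 6 h. XPO5 gave −1.47 (223055_s_at), −0.89 (223056_s_at) and −0.87 (223057_s_at). KHSRP gave −1.25 (204371_s_at) and −0.72 (204372_s_at), TARBP2 −0.59 (203677_s_at) and PRKRA −0.52 (209139_s_at). DDX17 gave 1.02 (208719_s_at), 0.81 (230180_at), 0.79 (208151_x_at), 0.70 (213998_s_at) and 0.51 (208718_at). For DDX17 the 6 h differences were negative and the 24 h ones positive in all 5 probe sets. The calls of 208151_x_at, 230180_at, 208718_at and 213998_s_at were lost in 9, 9, 5 and 4 of the 12 fits that left out 1 array. At 6 h treatment and array set cannot be told apart, and each of these values holds that 6 h part.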

How the results depend on the processing

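At 6 h the count of changed probe sets, 1443 in all and 3 for the members, became 3039 and 6 with the replicate block nested in time and 2219 in all with the block shared across times. It was 15407 and 19 on the poly-A spike scale and 490 and 0 with only the arrays of 6 h, and the members had 0 with no filter. The difference of the responses, 5380 and 12, gave 3299 and 5 on the spike scale. Ethanol at 24 h against 6 h, 113 in all, gave 170 with the shared block, 190 with a filter at 6, 37 on the spike scale and 269 with a trend. The block nested in time changed no other member call than those given, apart from DDX5 200033_at in the difference of the responses (0.27, adjusted p = 0.0436). The nested block was not used for ethanol at 24 h against 6 h.

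With 1 array left out, counts over all probe sets ran from 848 to 1385 at 6 h, 9303 to 11228 at 24 h, 4217 to 5545 for the difference of the responses and 0 to 267 for ethanol. Those of the members ran from 0 to 1, 9 to 16, 8 to 12 and 0 to 0. Some differences that had not passed changed sign. With cyclic loess KHSRP 212303_x_at gave 0.0089 at 6 h, and DICER1 213229_at 0.092 and DROSHA 0.047 at 24 h. On the spike scale at 6 h KHSRP 204371_s_at gave −0.021, KHSRP 204372_s_at −0.42 (adjusted p = 0.0293), and DGCR8 −0.24 (218650_at), −0.31 (64474_g_at) and −0.43 (91617_at). At 24 h DGCR8 gave −0.23 (218650_at) and −0.30 (91617_at) there. DDX5 200033_at, METTL3 and TENT2, which had passed, turned to −0.14, −0.045 and −0.10. With 1 array left out, sign changes came in ranges at 6 h from −0.098 to 0.069 (KHSRP 212303_x_at), −0.035 to 0.17 (KHSRP 204372_s_at), −0.084 to 0.0042 (TARBP2), −0.072 to 0.21 (DGCR8 91617_at) and −0.14 to 0.022 (DDX17 208718_at). At 24 h they were −0.087 to 0.20 (DGCR8 218650_at), −0.032 to 0.089 (91617_at), −0.12 to 0.052 (64474_g_at) and −0.099 to 0.025 (DICER1 213229_at). The spike scale lowers dexamethasone differences by the measured spike difference. The spikes read higher on dexamethasone arrays by 0.47 at 6 h and 0.34 at 24 h. The cause of that difference and of the other changes was not tested. Signals near a log2 of 4 limit the 6 untested probe sets.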
